A study of Nicotiana tabacum with 36 samples.

Results

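The gene models described here are all those that the assembly places on its first 10 scaffolds, chosen by identifier alone, from Nitab4.5_0000001g to Nitab4.5_0000010g. They were 587 of the 69500 predicted gene models of tobacco (0.845%), and they were ordered by the model number within each scaffold. Models are written below as scaffold and model number, so that 8g0200 is Nitab4.5_0000008g0200.1. Scaffold 3 held the most models, 95, scaffold 8 held 92, scaffold 6 held 70, scaffolds 2 and 5 held 59 each, scaffold 9 held 53, scaffold 1 held 51, scaffold 7 held 42, scaffold 4 held 36 and scaffold 10 held 30. No model number was skipped on any of the 10 scaffolds. The deposited files give each model an identifier and a length but no coordinates and no strand, so a distance between models is counted in model positions and not in bases.

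The RNA came from 3 tissues of *Nicotiana tabacum* cv. K326, a cultivated tobacco, namely root, whole shoot and shoot apex, sampled at ZT0, ZT6, ZT12 and ZT18, that is, 0, 6, 12 and 18 h of Zeitgeber time. All plants were 56 days old and had 18 h of light and 6 h of darkness a day, and no group carried a treatment or a transgene in the labels. Each of the 12 groups of tissue and time-point had 3 replicates, which gave 36 libraries. The labels do not say which plants went into a replicate, so p-values measure the spread between these libraries.

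A scaffold is a stretch of assembled chromosome, and gene models are the transcription units predicted along it. Neighbouring genes in plants can share expression because they lie in the same stretch of open or closed chromatin, because they are tandem copies of one gene, or because a single promoter region serves both, and many neighbours share none of these. Tobacco is an allotetraploid that carries related copies of many genes from its parental species, so a short read can fit more than 1 model. In leaves, transcripts of photosynthesis and of the circadian clock are known to rise and fall with the light. None of the 587 models could be matched to a named gene, so neither their functions nor the defining markers of the tissues can be given here.

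Total expected counts per library ran from 4125090 to 21265992 with a median of 12649543. The 587 models took 0.587% to 0.663% of the counts in root, 0.490% to 0.816% in shoot and 0.575% to 0.725% in shoot apex. Shoot ZT6 replicate 1 and shoot ZT18 replicate 2 stood apart, since their 10 most abundant models took 36.6% and 12.2% of the counts. They are among 5 libraries, with root ZT6 replicates 1 and 2 and root ZT18 replicate 2, for which the study's quality table lists the lowest shares of mapped reads. The libraries also fell into 2 sets by the length of the models their reads counted in, 13 with longer and 23 with shorter models, and 6 root, 3 shoot and 4 shoot apex libraries were in the first set. For root ZT18 replicate 2 the deposited total, 13332241, exceeds the mapped reads in that table, and its 10 most abundant models took 1.67% of the counts, so the table and the deposited values do not match there. Leaving out the 5 libraries was therefore repeated with this one kept, a choice made after the data had been seen.

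Expression along the scaffolds was uneven at every scale. A model was called expressed in a tissue if it reached a TPM (a level per unit of model length, scaled to the same total in each library) of 1 in each of the 3 replicates of at least 1 time-point. By this rule 362 of the 587 models (61.7%) were expressed in at least 1 tissue, where the share over all 69500 models was 61.8%. All 3 tissues expressed 277 of them (47.2%, against 46.9% over all models). Root alone expressed 26 (4.43%, against 4.91%), shoot alone 7 (1.19%, against 0.944%) and shoot apex alone 8 (1.36%, against 1.43%). At the other end, 87 models (14.8%, against 14.1%) had a count of 0 in every library. All 6 shares lay within 1 percentage point of those over all models.

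Silent models were short. The 87 members without a single count had a median length of 438 bases, while the 362 expressed members had a median of 1094 bases, and over all models the corresponding medians were 414 and 1135 bases. The 138 members with some count that did not meet the rule lay between, with a median of 642 bases. Silent models came singly and in runs. The longest runs without any count were 4 models long, and there were 2 of these, the first being 1g0450 to 1g0480. The longest run of models with a mean TPM under 1 was 8 models, 6g0190 to 6g0260, and the longest run with a mean TPM of at least 1 was 12 models, seen in 2 places, of which 1g0010 to 1g0120 at the very start of scaffold 1 was the first. Scaffold 10 had no silent model and the highest median of mean TPM among its expressed models, 21.4, while scaffolds 1 and 2 had 13 and 14 silent models and medians of 12.4 and 9.17.

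**Figure D1:**
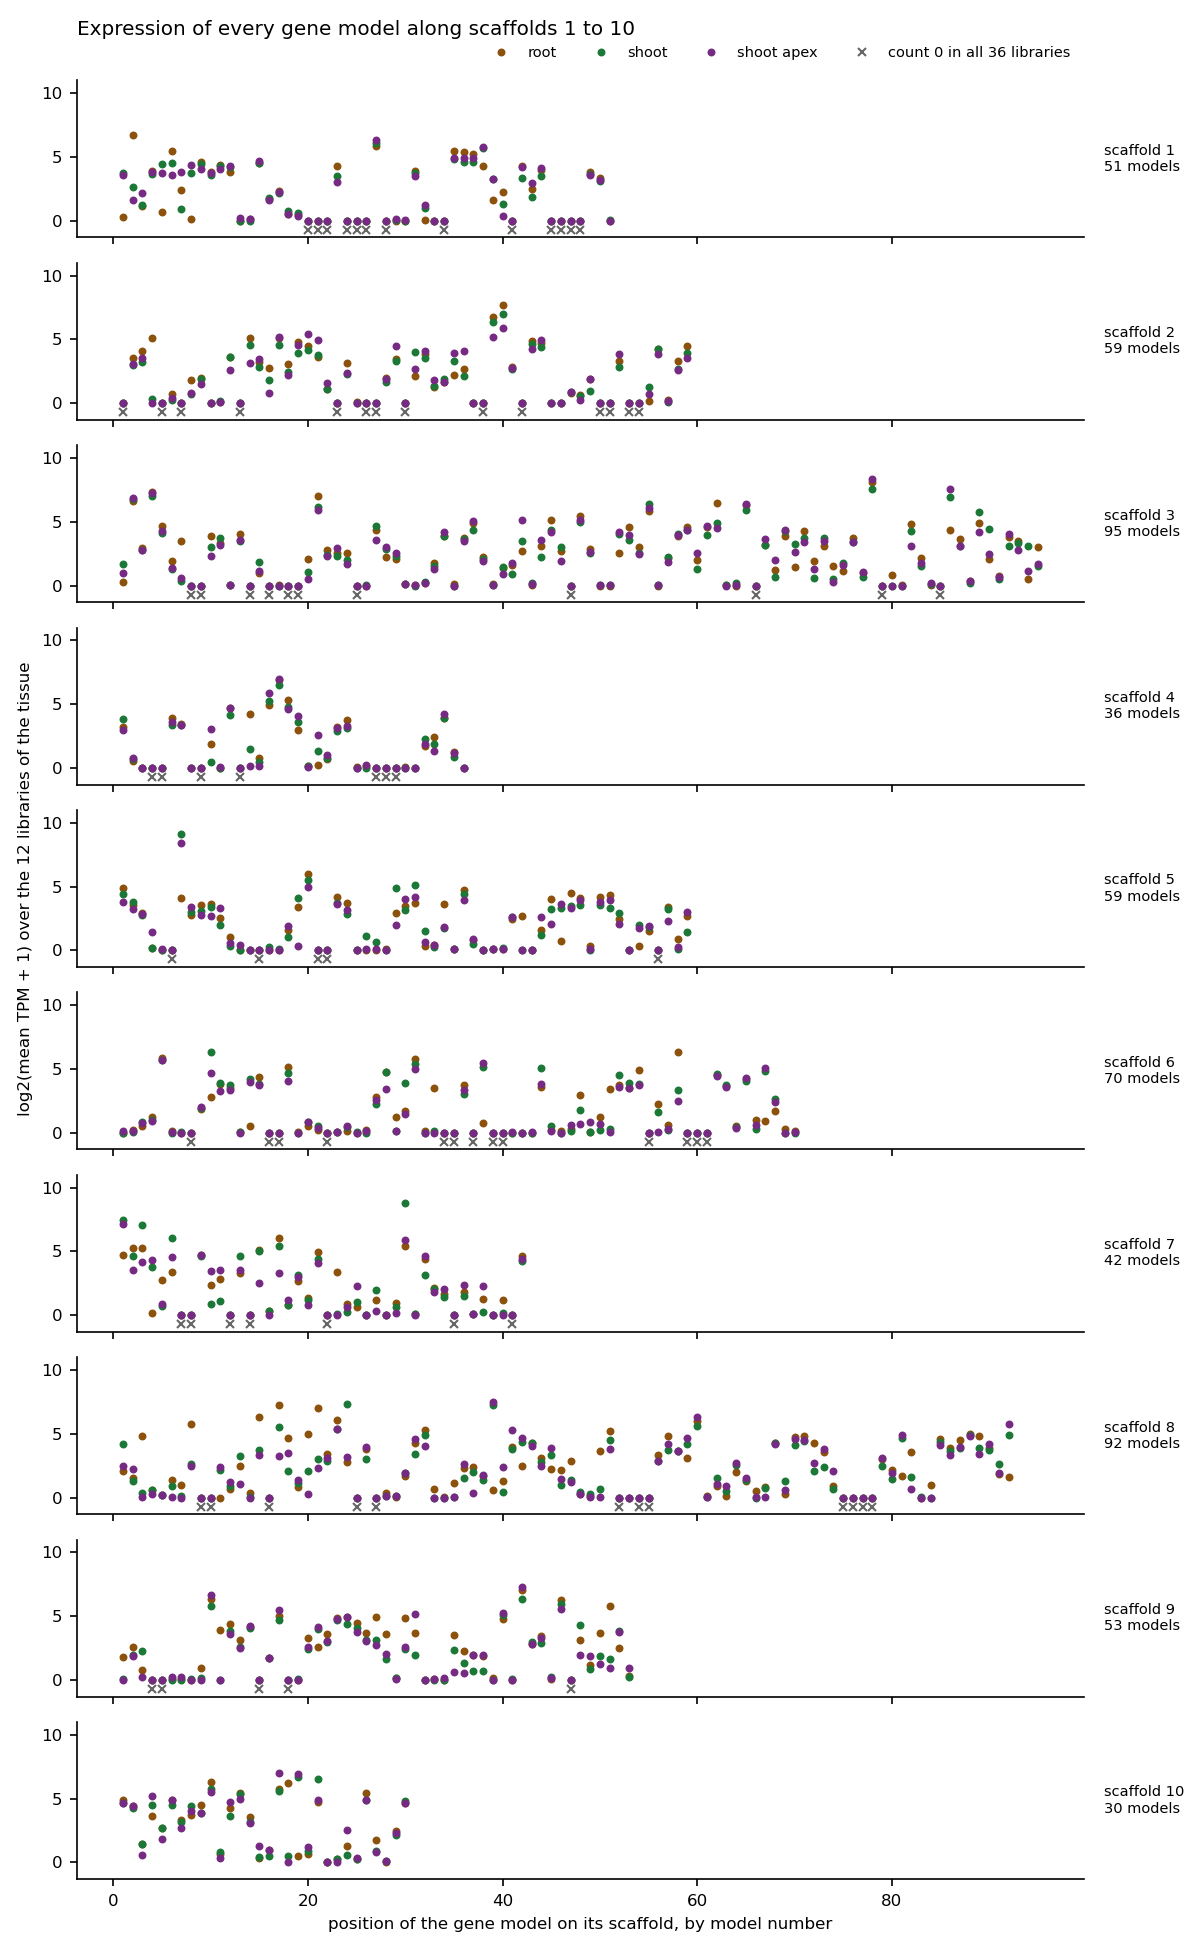
Every gene model on scaffolds 1 to 10 by position, with log2(mean TPM + 1) over the 12 libraries of root (brown), shoot (green) and shoot apex (purple), and a cross under each of the 87 models with a count of 0 in all 36 libraries. The 3 tissues overlap at most positions, and single models where root departs from both aerial tissues lie between neighbours where it does not.

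The most abundant model of each scaffold ranged widely in level and in pattern. The highest mean over all libraries, 304 TPM, was that of 5g0070. In root its TPM had a lowest value of 10.4, a median of 16.5 and a highest value of 24.6. In shoot these values were 125, 519 and 1337, and in shoot apex 243, 319 and 536. The lowest aerial library was therefore above the highest root library, and the log2 fold change was 5.29 ± 0.19 (SE) for shoot against root (adjusted p = 4.55e-19) and 4.56 ± 0.18 for shoot apex against root (adjusted p = 1.92e-18). Adjusted p-values are those of the quasi-likelihood test of edgeR, corrected by Benjamini-Hochberg over all models tested. Both neighbours of 5g0070 were far lower: 5g0060 had a count of 0 in every library and 5g0080 a mean of 7.54 TPM.

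The most abundant model of scaffold 8, 8g0390, was an aerial model as well. Its TPM ran from 0.16 to 1.51 in root with a median of 0.355, from 10.3 to 283 in shoot with a median of 157, and from 118 to 302 in shoot apex with a median of 187. Root did not overlap either aerial tissue. It had the largest positive log2 fold change of the members in both comparisons with root, 8.36 ± 0.32 in shoot (adjusted p = 1.32e-18) and 8.66 ± 0.32 in shoot apex (adjusted p = 4.43e-19) by edgeR's quasi-likelihood test.

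Other scaffolds peaked with models that differed less between tissues. 2g0400 had medians of 208 TPM for root, 130 for shoot and 58.2 for shoot apex, and the fall from shoot to shoot apex was 1.17 on the log2 scale (SE 0.12, edgeR adjusted p = 3.73e-09). 10g0170 was highest in shoot apex, where its lowest library (80.3 TPM) exceeded the highest root library (70.2) and the highest shoot library (75.4). 3g0780 had medians of 274 TPM for root, 203 for shoot and 297 for shoot apex, and only shoot apex against shoot passed the test (log2 fold change 0.69 ± 0.20, edgeR adjusted p = 0.00487). For 1g0270, 4g0170 and 6g0050 none of the 3 tissue comparisons passed, with means between 50.4 and 128 TPM in every tissue.

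The high mean of 7g0300 came from few libraries. Among the shoot libraries its TPM had a lowest value of 4.00 and reached 2697 at ZT6 in replicate 1 and 2038 at ZT18 in replicate 2. Its median was 3.21 in root, with 395 at ZT6 in replicate 1, and 39.8 in shoot apex. These 3 are among the 5 libraries with low shares of mapped reads. Shoot against root gave a log2 fold change of 5.33 ± 1.13 (edgeR adjusted p = 0.000179) and shoot apex against shoot gave -2.91 ± 1.00 (adjusted p = 0.0148). Without the 5 libraries the latter turned to 0.39 (adjusted p = 0.683), and to 0.45 (adjusted p = 0.629) with root ZT18 replicate 2 kept.

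The comparison of the tissues asks which models differ between them in level averaged over the time-points. A difference present at only some time-points may therefore not be called. Of the 587 models, 375 had enough counts to be tested, among 44594 over the whole annotation. Between shoot and root 218 of the 375 differed (58.1%, where the share over all models tested was 56.6%), 91 higher in shoot (24.3%, against 25.6%) and 127 lower (33.9%, against 30.9%). Between shoot apex and root 245 differed (65.3%, against 66.8%), 111 higher in shoot apex (29.6%, against 31.0%) and 134 lower (35.7%, against 35.9%). Between shoot apex and shoot 210 differed (56.0%, against 55.8%), 89 higher in shoot apex (23.7%, against 26.2%) and 121 lower (32.3%, against 29.7%). Every one of these 9 shares lay within 3 percentage points of the background. The split by direction moved when libraries or scale changed. Without the 5 libraries it was 103 higher and 101 lower in shoot than in root, and 126 higher and 117 lower in shoot apex than in root, and with root ZT18 replicate 2 kept these were 95 and 110, and 122 and 119. With limma on log2(TPM + 1) it was 57 higher and 150 lower in shoot than in root, and 84 higher and 61 lower in shoot apex than in shoot, where the larger direction turned.

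Combining the comparisons gave each tested model a pattern over the tissues. Root was above both aerial tissues for 84 of the 375 models (22.4%, against 21.4% over all models tested) and below both for 61 (16.3%, against 18.1%). Shoot was above both other tissues for 43 (11.5%, against 9.82%) and below both for 42 (11.2%, against 10.5%). Shoot apex was above both for 61 (16.3%, against 18.1%) and below both for 81 (21.6%, against 20.6%). No tissue comparison passed for 74 (19.7%, against 19.3%). All 7 shares lay within 2 percentage points of those over all models tested.

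**Figure D2:**
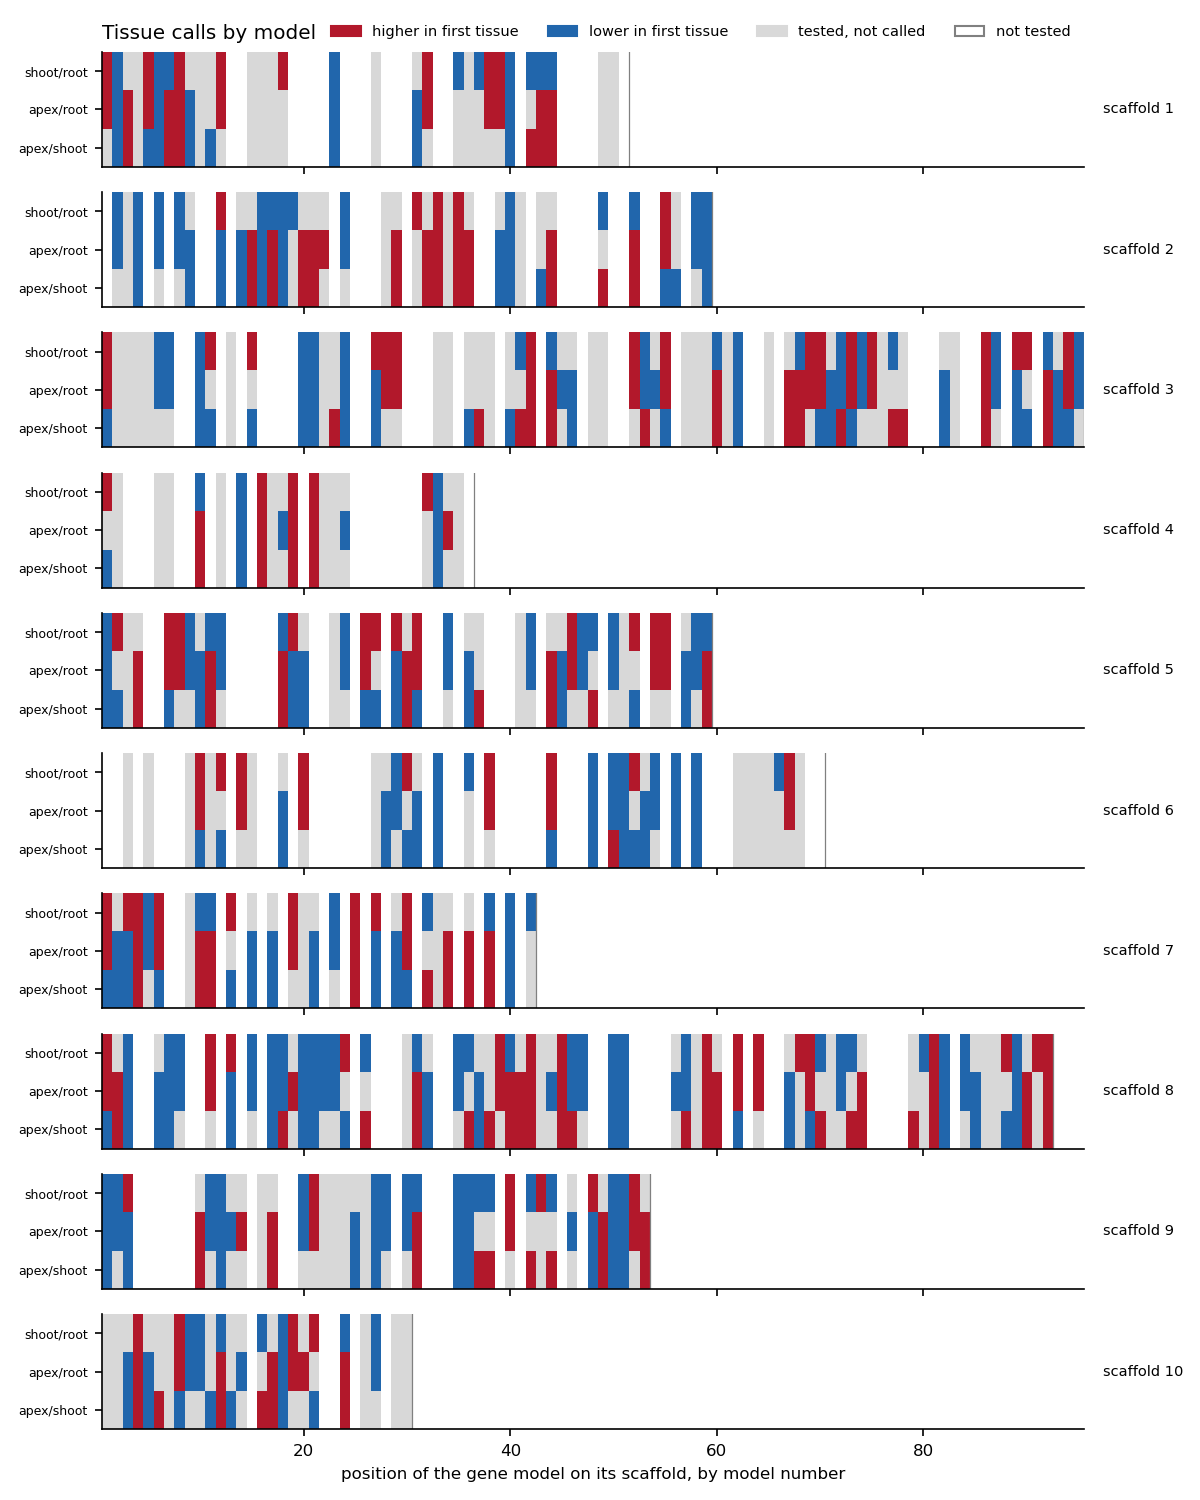
The 3 tissue comparisons for every model along scaffolds 1 to 10, each column a model and each row a comparison, with red for higher and blue for lower in the first tissue named (adjusted p under 0.05, edgeR), grey for tested and not called, and white for not tested. Red and blue alternate over short distances, and the longest runs of 1 colour are 3 or 4 models.

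The models with the largest differences were of 2 kinds, present in root and nearly absent above ground, or the reverse. 9g0110 was counted in root alone: its TPM in root ran from 3.21 to 29.8 with a median of 6.26, and its count was 0 in all 12 shoot and all 12 shoot apex libraries. Set against a floor of 3 counts over the 12 libraries, it was at least 314-fold higher in root than in shoot and at least 406-fold higher than in shoot apex. 2g0040 summed to 6245 expected counts for root, 40.0 for shoot and 2.0 for shoot apex, and its TPM in root was between 11.6 and 82.9 with a median of 27.3. No aerial library exceeded 1.23 TPM. 7g0230 summed to 1129 counts for root, 6.0 for shoot and 0.3 for shoot apex, with a median of 9.40 TPM in root (4.19 to 17.7) and at most 0.60 TPM elsewhere.

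Between shoot apex and shoot the largest falls were those of 5g0190 and 8g0670. 5g0190 ran from 6.26 to 21.1 TPM in root (median 8.85), from 1.97 to 33.1 in shoot (median 15.7) and from 0 to 0.68 in shoot apex (median 0.21). Every shoot apex library was below every library of the other tissues, and the log2 fold change against shoot was -6.08 ± 0.35 (edgeR adjusted p = 4.18e-14). 8g0670 was low everywhere, with medians of 0.72 TPM for root, 0.475 for shoot and 0 for shoot apex, and 266, 226 and 3.8 summed counts.

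The largest rises from shoot to shoot apex were those of 4g0100 and 7g0380, and both were lowest in whole shoot. 4g0100 ran from 0 to 0.82 TPM in shoot (median 0.36), from 1.01 to 4.40 in root (median 2.70) and from 3.49 to 11.5 in shoot apex (median 6.92), a log2 fold change of 4.34 ± 0.34 for shoot apex against shoot (edgeR adjusted p = 1.13e-11). Shoot overlapped neither other tissue. 7g0380 had medians of 0.09 TPM in shoot, 1.46 in root and 3.14 in shoot apex, with a log2 fold change of 4.13 ± 0.44 (adjusted p = 1.35e-09).

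Runs of consecutive models called in the same direction were short. For shoot lower than root the longest run was 4 models and occurred in 3 places, the first being 2g0160 to 2g0190, with falls of 1.96, 0.27, 0.44 and 0.63 on the log2 scale. Their edgeR adjusted p-values were 4.46e-07, 0.0181, 0.00143 and 0.0342. Without the 5 libraries the second and the fourth no longer passed (adjusted p = 0.112 and 0.0623), so that this run ended. For shoot apex higher than root the longest run was 4 models in 2 places, the first 3g0670 to 3g0700, with log2 fold changes of 0.72, 1.40, 0.72 and 1.78 and adjusted p-values of 0.0049, 0.000328, 5.81e-07 and 2.5e-10. With limma on log2(TPM + 1) the first and the third did not pass (adjusted p = 0.119 and 0.0682), which ended this run. The longest run of models lower in shoot apex than in root, 8g0200 to 8g0230, joined large and small changes, with falls of 7.01, 4.82, 0.28 and 0.66 and adjusted p-values of 1.23e-14, 7.61e-12, 0.0437 and 1.24e-05.

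Scaffold 1 shows how abruptly levels changed from model to model. 1g0420, 1g0430 and 1g0440 formed 1 of the 2 longest runs of models higher in shoot apex than in shoot, with log2 fold changes of 0.74, 1.27 and 0.57 (edgeR adjusted p = 0.000715, 6.24e-08 and 8.47e-05) and mean levels of 17.7, 6.81 and 16.3 TPM in shoot apex. The next 4 models, 1g0450 to 1g0480, had no count in any library. 1g0490 and 1g0500 then were present in all 36 libraries, with means of 12.2 and 8.25 TPM, and no tissue comparison passed for either. Of these 9 consecutive positions, 3 rose in shoot apex, 4 were silent and 2 did not pass.

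Whether neighbours share direction was counted over the 251 adjacent pairs with both models tested. For shoot against root both models were called in 81 pairs, 43 in the same direction (53.1% of them) and 38 in opposite directions, while pairs more than 10 positions apart on the same scaffold agreed in direction in 51.2% of the cases with both called. For shoot apex against root 55 adjacent pairs had the same and 59 opposite directions (48.2%, against 49.8% for distant pairs), and for shoot apex against shoot 40 had the same and 40 opposite directions (50.0%, against 50.9%). In each comparison neighbours with both models called were about as often opposite as alike.

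Among models with a mean TPM of at least 1, levels of neighbours were about as far apart as those of distant models. The median absolute difference in log2 mean TPM (with 1 added) was 1.36 for the 215 adjacent pairs of such models. It was 1.37 for the 4942 such pairs more than 10 positions apart. Both models had a mean under 1 TPM in 20.3% of all 577 adjacent and 16.6% of all 13747 distant pairs. Pairs with a count of 0 in every library for both models were a larger part of adjacent than of distant pairs. There were 28 among the 577 adjacent and 294 among the 13747 distant pairs, and 3311 among 152924 pairs on different scaffolds. No test was made of these shares and counts.

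Shared expression over the libraries was described by Pearson's r of log2(TPM + 1) over the 36 libraries, for pairs in which both models had a mean TPM of at least 1. The pairs share libraries, depth and models, so r is given as a description. The 215 adjacent pairs had a median r of 0.33, the 4942 pairs more than 10 positions apart had 0.28, and the 52235 pairs on different scaffolds had 0.28. Pairs 2 positions apart had a median of 0.32, those 3 to 5 apart 0.27 and those 6 to 10 apart 0.26. The difference between adjacent and distant pairs was 0.053, with an SD of 0.038 between the values from the 12 libraries of each replicate number.

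This difference varied with the libraries and the scale used. Without the 5 libraries with low shares of mapped reads the median r was 0.047 for 220 adjacent pairs and 0.052 for distant pairs, a difference of -0.0051. With root ZT18 replicate 2 kept the medians were 0.048 and 0.048. Without shoot ZT6 replicate 1 alone the medians were 0.11 and 0.091. On log2 CPM (counts scaled to the library total) with TMM scaling, which corrects the total for a few very abundant transcripts, they were 0.028 and 0.0034. Within the 13 libraries that counted longer models they were 0.050 and 0.053, and within the 23 others 0.44 and 0.40, or 0.11 and 0.075 once shoot ZT6 replicate 1 and shoot ZT18 replicate 2 were left out. Single pairs spread widely, with quartiles of 0.024 and 0.64 for adjacent and 0.017 and 0.54 for distant pairs over all libraries.

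**Figure D3:**
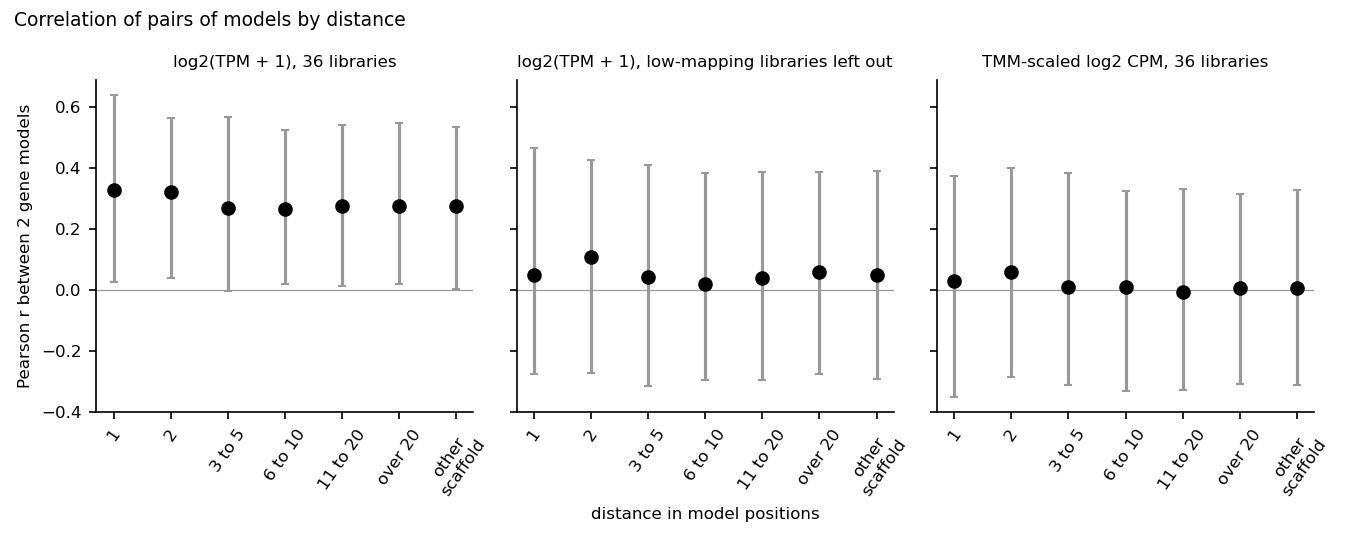
Median Pearson r of pairs of models (points) and the range between quartiles (bars) by distance in model positions, for log2(TPM + 1) over 36 libraries, the same over the 31 libraries left without those of low mapping, and TMM-scaled log2 CPM. Adjacent pairs lie at 0.33, 0.047 and 0.028 in the 3 panels, and pairs on other scaffolds at 0.28, 0.050 and 0.0049.

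Tissues and scaffolds differed in this measure. Within the 12 root libraries the median r was 0.18 for adjacent and 0.052 for distant pairs, within shoot 0.69 and 0.63, and within shoot apex 0.10 and 0.12. Without the 2 shoot libraries that stood apart the shoot values were 0.11 and 0.022, by a choice made after the data had been seen. By scaffold, adjacent pairs were above distant pairs on 5 of the 10. The largest differences were 0.25 on scaffold 8 (42 adjacent pairs) and 0.22 on scaffold 2 (21 pairs), which without the 5 libraries were 0.10 and 0.15 and on TMM-scaled values 0.19 and 0.23. On scaffold 10 adjacent pairs were lower by 0.069 over all libraries (15 pairs) and by 0.30 on TMM-scaled values. Scaffold 1 went from 0.015 over all libraries to -0.27 without the 5 libraries and -0.28 on TMM-scaled values (21 pairs), and scaffold 7 went from -0.0041 to -0.34 and 0.18 (11 pairs). Over all other scaffolds of the assembly 22821 adjacent pairs had a median of 0.35 and pairs more than 10 positions apart 0.30. These 2 medians were taken on log2(TPM + 1) over all libraries only, and not with libraries left out or on TMM-scaled values.

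Single pairs of neighbours varied in close step. Of the 215 adjacent pairs 15 had an r of at least 0.8 (6.98%, against 4.84% of distant pairs), and 11 of the 15 also did when group means were removed, that is, among replicates alone. Among all pairs with group means removed, 15.8% of adjacent and 11.3% of distant pairs reached 0.8. On TMM-scaled values the shares were 2.35% of adjacent pairs (5 of 213) and 2.38% of distant pairs, so adjacent pairs were not above distant ones there. On that scale 3 of the 15 kept an r of at least 0.8. They were 8g0200 with 8g0210, 1g0490 with 1g0500, and 9g0500 with 9g0510, the last named here after its values were seen.

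The highest r, 0.94, was that of 8g0200 and 8g0210, a pair of root models. 8g0200 ran from 17.3 to 59.8 TPM in root (median 28.6), from 0 to 14.0 in shoot (median 2.5) and from 0 to 0.75 in shoot apex (median 0.16). 8g0210 ran from 38.1 to 288 TPM in root (median 124), from 0.82 to 15.9 in shoot (median 7.50) and from 2.12 to 7.60 in shoot apex (median 3.48). Root lay above both aerial tissues without overlap in both models. Against root 8g0200 fell by 3.29 (SE 0.40) in shoot and by 7.01 (SE 0.49) in shoot apex on the log2 scale, and 8g0210 fell by 3.90 (SE 0.38) and 4.82 (SE 0.39), with edgeR adjusted p-values of 7.61e-09 or less. Within root r was 0.35, within shoot 0.88 and within shoot apex -0.0049.

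1g0490 and 1g0500 followed each other within each tissue, at r = 0.94 for root, 0.92 for shoot and 0.96 for shoot apex, without any difference between tissues that passed the test. Their TPM ran from 3.09 to 21.1 and from 1.51 to 17.6 over all libraries. The libraries that counted longer models had means of 17.7 and 14.1 TPM for the 2 models, and those that counted shorter models 9.11 and 4.96. Within the sets r was 0.86 and 0.87.

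The next 3 pairs had r between 0.88 and 0.93. 8g0700 and 8g0710 (r = 0.93) had means of 26.5 and 27.3 TPM in root, 16.2 and 21.1 in shoot and 23.1 and 22.2 in shoot apex, and r was 0.72 on TMM-scaled values, 0.30 within the 13 libraries that counted longer models and 0.93 within the 23 others. 1g0360 and 1g0370 (r = 0.89) went from means of 49.0 and 38.3 TPM in the libraries that counted longer models to 20.6 and 24.3 in the others. 8g0560 and 8g0570 (r = 0.88) had their lowest values, 0.73 and 1.18 TPM, in shoot ZT6 replicate 1, and without the 5 libraries r was 0.66.

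Other neighbours were opposite. The lowest r, -0.94, was that of 10g0180 and 10g0190. 10g0180 ran from 41.8 to 117 TPM in root (median 65.0), from 0 to 3.83 in shoot (median 0.070) and from 0 to 0.20 in shoot apex (median 0). 10g0190 ran from 0 to 2.45 TPM in root (median 0.30), from 2.42 to 264 in shoot (median 73.6) and from 38.8 to 191 in shoot apex (median 112). The root range of 10g0180 lay far above its aerial ranges, while 10g0190 overlapped between root and shoot at a single library, shoot ZT6 replicate 1. Against root 10g0180 fell by 7.60 (SE 0.80) and 10g0190 rose by 8.05 (SE 0.52) in shoot on the log2 scale, with edgeR adjusted p-values of 2.06e-10 and 3.96e-16. Summed over the 12 libraries of a tissue, 10g0180 had 12073 counts for root, 46.5 for shoot and 6.0 for shoot apex, and 10g0190 had 12.2, 4259 and 5968.

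Opposite directions between root and aerial tissue were also seen at the start of scaffold 1. 1g0010 ran from 0.04 to 0.64 TPM in root (median 0.24), from 0.72 to 32.2 in shoot (median 10.6) and from 4.28 to 27.9 in shoot apex (median 8.62). 1g0020 ran from 56.3 to 160 TPM in root (median 101), from 0.28 to 22.7 in shoot (median 2.98) and from 0.68 to 4.83 in shoot apex (median 1.74). Root overlapped the aerial tissues in neither model. The log2 fold changes of shoot against root were 5.93 ± 0.32 and -4.68 ± 0.33 (edgeR adjusted p = 6.64e-16 and 5e-13), and r over the 36 libraries was -0.84.

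On scaffold 7 the direction changed at each of 3 consecutive models. 7g0040 had medians of 0.135 TPM for root, 13.4 for shoot and 18.5 for shoot apex, 7g0050 of 5.25, 0.60 and 0.765, and 7g0060 of 9.84, 49.0 and 19.5. Shoot against root gave log2 fold changes of 6.93 ± 0.31, -2.91 ± 0.19 and 2.96 ± 0.13, with edgeR adjusted p-values of 1.09e-18, 1.36e-13 and 3.13e-17. The correlations of -0.83 and -0.60 between these neighbours were between tissues: after removal of the tissue means they were 0.32 and 0.16. On scaffold 8, 8g0810 and 8g0820 (r = -0.73) had medians of 2.21 and 8.96 TPM in root, 9.28 and 1.53 in shoot and 24.2 and 0.475 in shoot apex. In all, 10 adjacent pairs had an r of -0.5 or less, and 0 of these did after removal of the tissue means. Distant pairs at -0.5 or less were not counted. An r below 0 was about as frequent at any distance. It was seen in 23.7% of adjacent pairs, 23.9% of pairs more than 10 positions apart and 24.8% of pairs on different scaffolds.

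**Figure D4:**
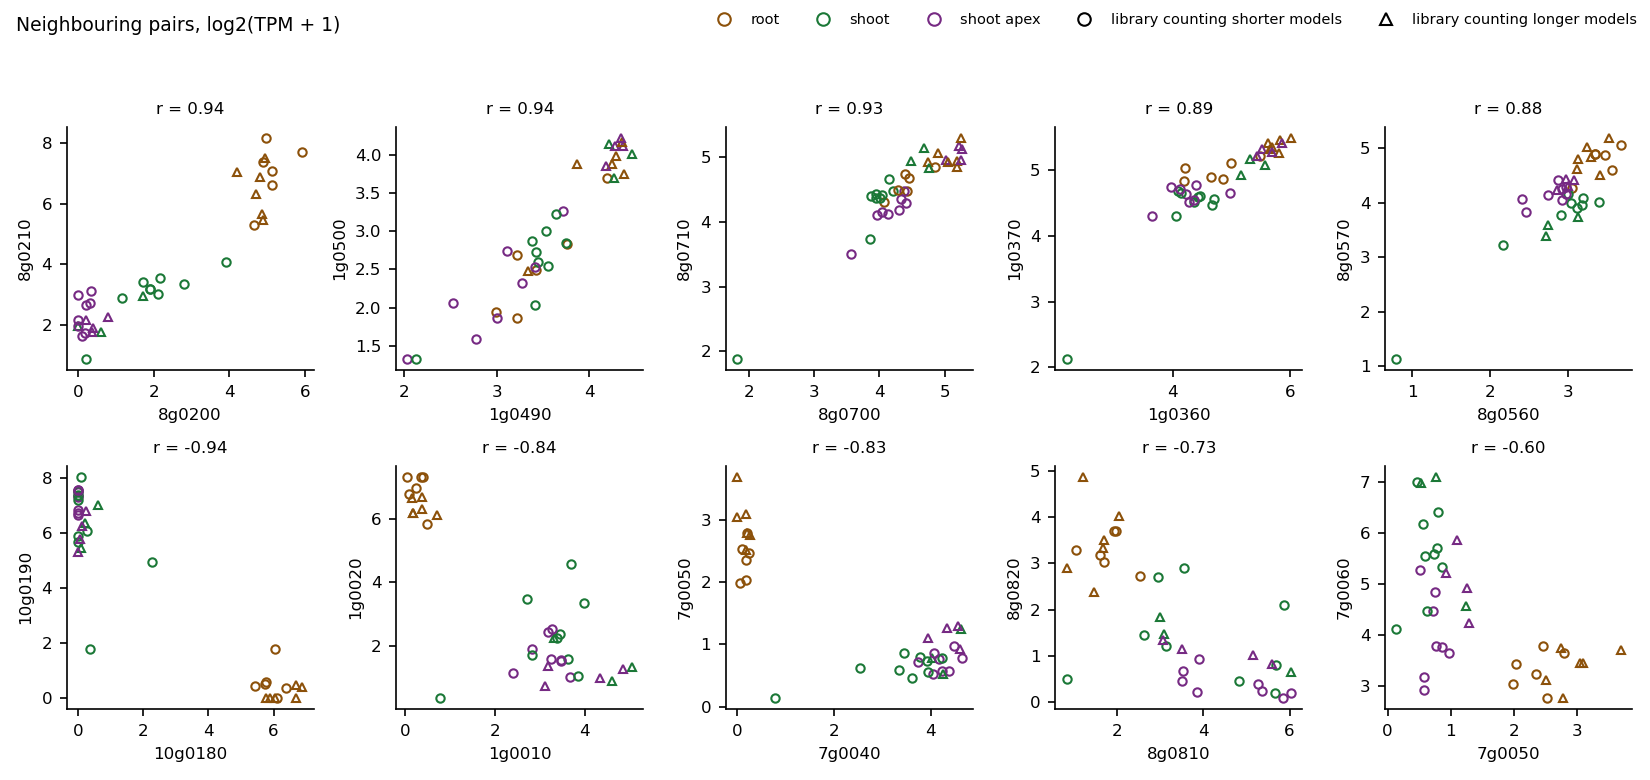
The 5 adjacent pairs with the highest r (upper row) and the 5 with the lowest (lower row), each point a library, with log2(TPM + 1) of the first model on the horizontal and of the next on the vertical axis, coloured by tissue and shaped by the length of the models the library counted. In the lower row root libraries lie mostly toward one corner and aerial libraries toward the other. Some aerial libraries, such as shoot ZT6 replicate 1, are low in both models in several of these panels. In 4 panels of the upper row the tissues overlap.

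Members that changed over the day were found in both aerial tissues. The comparison of the 4 time-points within a tissue called 32 of the 375 members in shoot (8.53%, where the share over all models tested was 8.02%), 25 in shoot apex (6.67%, against 5.39%) and 0 in root (0%, against 0.195%). In root 25 of the 375 members had an unadjusted p under 0.05 in edgeR's quasi-likelihood test, against 3621 of all 44594 models tested. DESeq2 called 2 of the 375, 3g0070 and 5g0090, against 359 of the 44594. With replicate 1, 2 or 3 left out of every group the counts were 17 to 19 in shoot and 7 to 13 in shoot apex. Both aerial tissues called 14 members, which is 43.8% of the shoot list and 56.0% of the shoot apex list, and the highest time-point was the same in both tissues for 11 of the 14. Of the 32 models called in shoot the highest mean was at ZT0 for 4, at ZT6 for 10, at ZT12 for 11 and at ZT18 for 7, on the TMM scale. By mean TPM 22 of the 32 had the same highest time-point, and shoot ZT6 replicate 1, in which most models had a low TPM, is 1 of the 3 replicates of its group. Without it and shoot ZT18 replicate 2 the highest mean was at ZT0 for 6, at ZT6 for 9, at ZT12 for 12 and at ZT18 for 5, and 27 of the 32 kept their highest time-point. In shoot apex ZT0 was highest for 12, ZT6 for 5, ZT12 for 7 and ZT18 for 1 of the 25, and 24 of the 25 had the same highest time-point by mean TPM. The overlap of the lists and the highest time-points are not given over all models tested, so they describe these members only.

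The smallest p-values in both aerial tissues were those of 6g0530, highest at ZT12, and 5g0090, highest at ZT0. Both models were low at ZT6 and higher at ZT18. In shoot 6g0530 had 2.25, 3.82 and 4.89 TPM at ZT0, 0.56, 2.64 and 4.54 at ZT6, 50.6, 25.7 and 26.3 at ZT12, and 19.1, 12.97 and 18.4 at ZT18. In shoot apex it had 3.15, 2.99 and 1.37 TPM at ZT0, 2.61, 2.29 and 3.85 at ZT6, 26.8, 19.0 and 16.2 at ZT12, and 11.1, 10.2 and 24.9 at ZT18. Every library of the first 2 time-points was below every library of the last 2 in both tissues. The edgeR adjusted p over time-points was 2.06e-08 in shoot and 5.52e-08 in shoot apex, and root ran from 5.52 to 21.02 TPM with overlapping time-points.

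5g0090 was highest at ZT0. In shoot it had 12.4, 10.9 and 32.5 TPM at ZT0, 0.16, 0.44 and 0.10 at ZT6, 1.66, 1.19 and 1.15 at ZT12, and 10.6, 6.79 and 11.6 at ZT18. In shoot apex it had 16.5, 16.4 and 14.1 TPM at ZT0, 0.61, 0.24 and 0.75 at ZT6, 0.83, 0.54 and 0.26 at ZT12, and 4.79, 5.28 and 10.47 at ZT18. ZT0 and ZT18 lay above ZT6 and ZT12 without overlap, with adjusted p-values of 6.46e-08 and 5.26e-09 (edgeR). In root it had 10.2, 22.2 and 25.4 TPM at ZT0 and 3.95, 3.85 and 6.39 at ZT12, so that these 2 time-points did not overlap either, but the root comparison did not pass the edgeR test over all models.

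8g0810, opposite to its neighbour between tissues, was highest at ZT12 in both aerial tissues. In shoot it had 5.11, 6.67 and 7.02 TPM at ZT0 and 64.6, 50.9 and 57.6 at ZT12, and in shoot apex 10.4, 10.47 and 13.5 at ZT0 and 47.2, 64.7 and 40.3 at ZT12. At ZT18 it had 49.3, 10.7 and 27.4 TPM in shoot and 56.8, 37.2 and 34.5 in shoot apex. The edgeR adjusted p over time-points was 4.44e-07 in shoot and 5.28e-05 in shoot apex. Its neighbour 8g0820 was called in neither tissue. 7g0060 was highest at ZT6 in shoot apex, with 56.9, 37.5 and 36.0 TPM against 8.04, 12.8 and 6.59 at ZT0 (adjusted p = 3.89e-06).

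**Figure D5:**
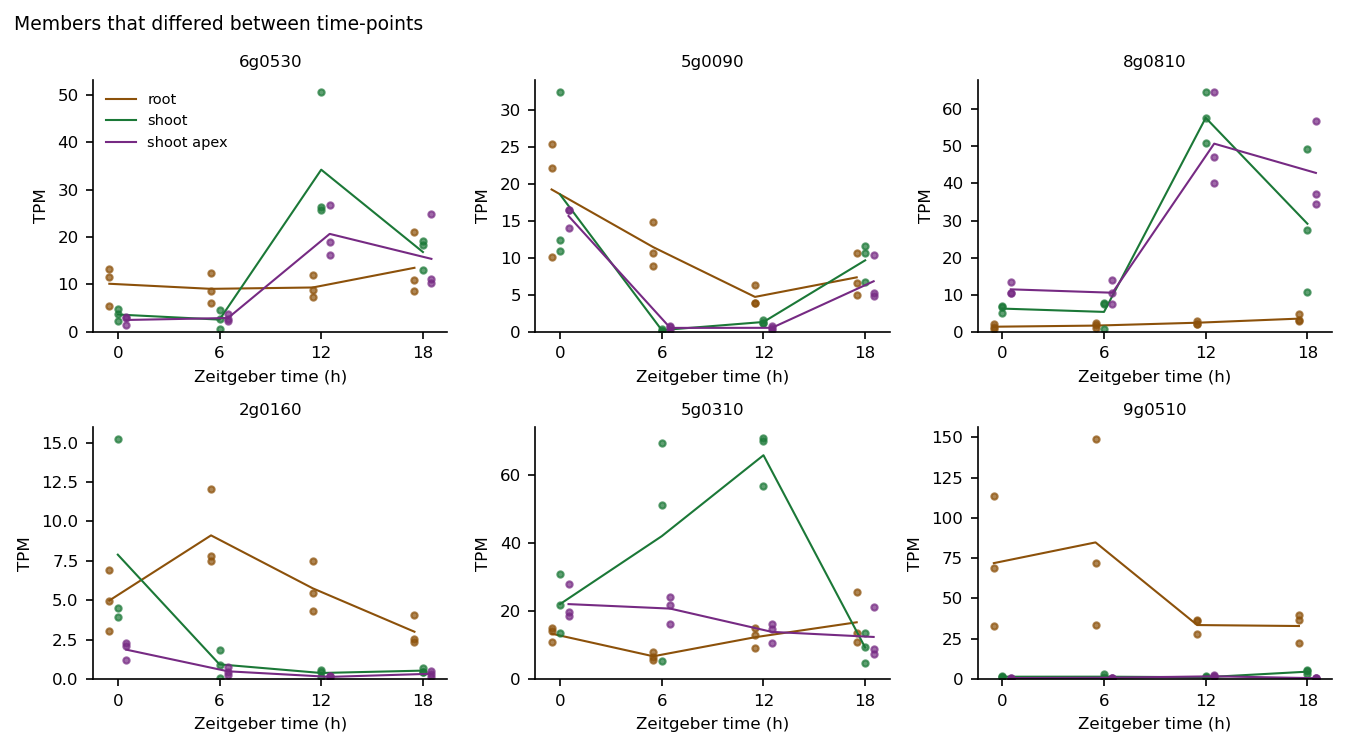
TPM of 6 members at ZT0, ZT6, ZT12 and ZT18 in root, shoot and shoot apex, each point a library and each line the mean of 3 replicates. 6g0530 and 8g0810 are highest at ZT12 and 5g0090 at ZT0 in both aerial tissues, and 5g0310 is highest at ZT12 in shoot but not in shoot apex.

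Time courses differed between tissues for 7 of the 375 members (1.87%, where the share over all models tested was 1.97%) by a test of the time by tissue terms that was added after the data had been seen. All 7 were among the models called in shoot, and 5 of them among those called in shoot apex. 5g0310 rose in shoot from 30.8, 21.8 and 13.5 TPM at ZT0 to 56.8, 70.8 and 70.0 at ZT12 and was at 9.29, 4.87 and 13.7 at ZT18. In shoot apex it had 19.7, 27.9 and 18.6 TPM at ZT0 and 10.6, 14.7 and 16.3 at ZT12, so that ZT12 lay above ZT0 in shoot and below it in shoot apex, without overlap. In shoot apex alone the comparison of time-points did not pass (edgeR adjusted p = 0.452). The adjusted p of the time by tissue terms was 0.00164 (edgeR), and it was 0.0751 without the 5 libraries, 0.223 with limma and 0.0741 to 0.241 with a replicate left out.

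Pairs with both models called over time-points were few, among neighbours and among other pairs alike. In shoot 2 adjacent pairs had both models called, 8g0450 with 8g0460 and 9g0510 with 9g0520, and in neither was the highest time-point the same. In shoot apex 0 adjacent pairs had both models called. As shares of the 251 adjacent pairs tested these are 0.797% and 0%, against 0.554% and 0.398% of the pairs more than 10 positions apart. For pairs on different scaffolds the shares were 0.722% and 0.437%.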

How the data were processed

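RNA-seq libraries of 36 samples were analysed. Per the labels, reads were processed with CASAVA 1.9.4, Bowtie 1.1.0 and RSEM 1.2.7 against the gene models of the tobacco assembly Nitab4.5. The authors deposited for each library the RSEM expected counts, not normalized, and TPM values, which divide by model length and scale to the same total. Effective lengths equalled model lengths in all 36 files. Random-primed libraries were made from total RNA, and whether counting used strand was not given in the sources used here. Overlapping, antisense or near-identical models may therefore share reads, and expected counts split such reads.

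Expected counts were rounded to whole numbers and tested with edgeR 4.0.16 in R 4.3.3 (quasi-likelihood test, TMM, filterByExpr with a minimum count of 10 and a minimum total of 15) over all 69500 models in 1 fit of 12 groups, with Benjamini-Hochberg adjustment and a threshold of 0.05. Tissue contrasts were averaged over the 4 time-points. The test was tried on simulated data first. DESeq2 1.42.0, limma 3.58.1 on log2(TPM + 1), other filters, left-out libraries and a replicate block were alternatives. The test of time by tissue, library length class as a term, dispersions estimated first, the split by scaffold ends, the sets of libraries by length, the left-out sets that keep root ZT18 replicate 2 or drop 2 shoot libraries, and the combination of TMM-scaled CPM with left-out libraries were added after the data had been seen. Library length class was set by the widest gap in the mean inverse length of the models a library counted. Same-numbered replicates did not deviate together.

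The members, the rule for named models and the alternatives were chosen with earlier results of these data known. Named models were the most abundant on each scaffold, the 5 adjacent pairs with the highest and the 5 with the lowest r, the largest called changes in each tissue comparison, the smallest p over time-points in each tissue and the longest runs. Pairs and runs were chosen on their values and were described with no test. Total counts limit precision, and a count of 0 was read against a floor of 3 counts over the 12 libraries of a tissue, for counting error only. A table of the whole series was not used.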

Additional observations from a re-analysis of the deposited data

Results flagged for a closer look

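A test of the difference between tissues in their time courses, added after the data had been seen, called 7 members. Their adjusted p-values in edgeR's quasi-likelihood test were 3.89e-05 for 5g0090, 8.24e-05 for 6g0530, 0.00164 for 5g0310, 0.00258 for 9g0510, 0.00869 for 2g0160, 0.0282 for 3g0900 and 0.0306 for 8g0880. Without the 5 libraries 5g0310 (0.0751), 3g0900 (0.0681) and 8g0880 (0.228) no longer passed, and 3g0900 did not with the replicate block (0.0538). With limma 5g0310, 9g0510, 3g0900 and 8g0880 did not pass. 5g0090 and 6g0530 passed in all alternatives run but that without replicate 2 (0.246 and 0.176), and the other 5 did not pass with any replicate left out. 9g0510 had 1.36, 1.35 and 1.71 TPM at ZT0 and 5.23, 2.90 and 5.68 at ZT18 in shoot, against 68.7, 114 and 33.2 at ZT0 and 22.2, 40.0 and 36.6 at ZT18 in root, where both time-points overlapped. 2g0160 was highest at ZT0 in shoot, with 4.5, 3.96 and 15.2 TPM against at most 1.82 at any other time-point. In root it had 7.48, 12.1 and 7.81 at ZT6 and 4.3, 5.48 and 7.49 at ZT12, which overlapped. Its root values at ZT18, 4.09, 2.55 and 2.37, lay below those at ZT6 without overlap, although the root comparison of time-points did not pass. 3g0900 had 5.07, 82.4 and 66.1 TPM at ZT6 in shoot, where the first value is that of the library that stood apart, and 6.25, 7.0 and 5.06 in shoot apex.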

How the results depend on the processing

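Counts of members differing between tissues stayed within 1.5 times under every alternative. With the replicate block the counts were 215, 245 and 210 for the tissue comparisons, 0, 27 and 23 for time in root, shoot and shoot apex and 6 for time by tissue. No call count moved by over 1.5 times, and same-numbered libraries did not deviate together. Time counts moved more. In root DESeq2 called 2, and leaving out a replicate or shoot ZT6 replicate 1 gave 0 to 1. In shoot limma called 15, the length class term gave 49, leaving out a replicate or that library gave 17 to 24, and leaving out the 5 libraries gave 28. In shoot apex limma called 5 and the same omissions gave 7 to 23. Time by tissue gave 3 with limma, 4 without the 5 libraries, 14 with the length class term and 0 to 6 with those omissions.

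The median r of adjacent models moved to 0.0278 on TMM-scaled CPM, 0.0344 on residuals from the libraries' inverse length, 0.0471 without the 5 libraries, 0.048 with root ZT18 replicate 2 kept, 0.0166 on TMM-scaled CPM without them and 0.0495 in libraries counting longer models. Its difference from distant pairs was 0.1105 at a mean TPM of at least 5, 0.0121 on TMM-scaled CPM without the 5 libraries and 0.0124 to 0.0855 with replicates left out. It turned to -0.0014 on those residuals, to -0.0051 without the 5 libraries, to -0.0003 with root ZT18 replicate 2 kept and to -0.003 in libraries counting longer models. The cause was not tested.

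Among the named members 7g0300 turned between shoot apex and shoot, to 0.39 (log2, edgeR adjusted p = 0.683) without the 5 libraries and to 0.45 with root ZT18 replicate 2 kept. Of 1339 alternatives for the 103 tissue differences of named members, 118 lost the call, 2 turned and 1219 kept direction and call. The fall of 2g0400 from root to shoot did not pass in edgeR without the 5 libraries (adjusted p = 0.0943), with root ZT18 replicate 2 kept (0.0685) or without replicate 1 (0.0524). After removal of tissue means r turned to 0.0356 for 1g0010 with 1g0020, 0.3167 for 7g0040 with 7g0050 and 0.1601 for 7g0050 with 7g0060. After removal of group means the last 2 were 0.3299 and 0.277.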

Other observations

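Models at the ends of the scaffolds were less often silent, a split chosen after the data had been seen and not tested. Of the 60 models that are the first 3 or last 3 of a scaffold 2 had a count of 0 in every library (3.33%), while 85 of the 527 others did (16.1%). By the rule for expression 46 of the 60 (76.7%) and 316 of the 527 (60.0%) were expressed in at least 1 tissue. The lengths of end and inner models were not compared, and the ends of other scaffolds were not counted.

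Besides 9g0110, 3 members chosen after their values were seen had a tissue without any count. Only members above a minimum count sum in another tissue were considered. 8g0110 had no count in root and was at least 119-fold higher in shoot and at least 135-fold higher in shoot apex, against a floor of 3 counts over 12 libraries. 8g0070 had none in shoot apex and was at least 52.4-fold higher in root, and 8g0840 had none in shoot and was at least 59.1-fold higher in root.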
